A study of Arabidopsis thaliana with 10 samples.

Results

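Flavonoids are plant phenolics built from phenylalanine, and the 10 genes described here encode steps of their synthesis and a regulator of it. They were taken by name from the known pathway and make up 10 of the 18411 genes listed in either of the deposited tables. The early genes number 5: CHS, CHI, F3H, F3'H and FLS1. The late genes number 4: DFR, LDOX, UGT75C1 and TT19. The last of the 10 is the MYB transcription factor gene MYB12. All 10 genes were listed in the table of light-grown seedlings, and the 5 early genes alone were listed in the table of dark-grown seedlings.

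The samples were polyA RNA libraries of whole Arabidopsis thaliana Col-0 seedlings from lines titled GFP, DIG1 and DIG2, with 2 libraries in each of 5 groups. GFP, DIG1 and DIG2 seedlings were kept in darkness to an age of 3 d and given 10 µM dexamethasone, a synthetic glucocorticoid used to induce transgenes, for 4 h, also in the dark. GFP and DIG1 seedlings aged 10 d were raised in long days on plates with 500 nM dexamethasone for 10 d. Every group, GFP included, therefore received dexamethasone, and there was no group without it. The series title names abscisic acid-responsive transcription factors, and the question each comparison addressed was which transcripts differ when DIG1 or DIG2 is induced. The labels describe neither the construct nor how many independent transformants each line stands for. They also do not say that replicates came from separate plates or cultures, so p-values measure the spread between these libraries, which may be technical. The growth text of the labels gives the plate dose in another unit, and the value here is that of the treatment text.

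Chalcone synthase (CHS, AT5G13930) joins a phenylpropanoid to malonyl units, and chalcone isomerase (CHI, AT3G55120) closes the ring. Flavanone 3-hydroxylase (F3H, AT3G51240) then makes dihydroflavonols, and flavonoid 3'-hydroxylase (F3'H, AT5G07990) adds a hydroxyl group to the B ring. At this point the route forks. Flavonol synthase (FLS1, AT5G08640) leads to colourless flavonols, whereas dihydroflavonol reductase (DFR, AT5G42800) and leucoanthocyanidin dioxygenase (LDOX, AT4G22880) lead to the red anthocyanins. UGT75C1 (AT4G14090) glucosylates anthocyanins, and TT19 (AT5G17220) is a glutathione S-transferase needed for their passage to the vacuole. In Arabidopsis the early genes CHS, CHI, F3H and FLS1 are known targets of MYB12 (AT2G47460) and its relatives MYB11 and MYB111. The late genes are known targets of complexes of a MYB protein such as PAP1, a bHLH protein such as TT8, and TTG1. Light induces the pathway in seedlings, in part through the bZIP protein HY5.

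HY5 and other bZIP and bHLH proteins bind the G-box CACGTG, so the 250 bases before each annotated start were read from the RefSeq genome TAIR10.1 and searched for it. The G-box reads the same on both strands. It was present in 6.486% of the 27443 promoters of that length and in 4 of the 10 genes: CHS, F3H, DFR and MYB12. The following 5 are shown because they pair genes with and without a G-box in the early and in the late group. The G-box is in capitals and each sequence is given 5′ to 3′ on the strand of its gene. CHS lies at chr5:4488226-4488475 on the plus strand, F3H at chr3:19024942-19025191 on the plus strand, F3'H at chr5:2560078-2560327 on the plus strand, DFR at chr5:17166033-17166282 on the minus strand, and LDOX at chr4:12006210-12006459 on the minus strand.
CHS: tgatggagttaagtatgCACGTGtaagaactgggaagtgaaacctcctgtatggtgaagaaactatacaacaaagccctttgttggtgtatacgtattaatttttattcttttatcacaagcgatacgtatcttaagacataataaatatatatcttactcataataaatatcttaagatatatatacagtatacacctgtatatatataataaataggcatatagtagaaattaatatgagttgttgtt
F3H: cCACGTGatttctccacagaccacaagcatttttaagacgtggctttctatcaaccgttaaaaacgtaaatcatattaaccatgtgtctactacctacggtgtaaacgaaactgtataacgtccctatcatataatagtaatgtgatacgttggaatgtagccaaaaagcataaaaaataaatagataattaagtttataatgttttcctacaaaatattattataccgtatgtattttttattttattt
F3'H: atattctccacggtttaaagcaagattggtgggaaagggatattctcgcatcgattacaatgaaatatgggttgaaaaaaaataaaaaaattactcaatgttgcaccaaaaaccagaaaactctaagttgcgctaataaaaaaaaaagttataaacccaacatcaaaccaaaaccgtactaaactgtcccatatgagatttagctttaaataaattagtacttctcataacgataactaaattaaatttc
DFR: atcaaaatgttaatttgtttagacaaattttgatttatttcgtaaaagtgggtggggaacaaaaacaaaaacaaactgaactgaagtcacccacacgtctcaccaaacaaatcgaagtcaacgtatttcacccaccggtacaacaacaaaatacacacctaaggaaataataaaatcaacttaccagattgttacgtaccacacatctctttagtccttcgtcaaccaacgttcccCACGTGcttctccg
LDOX: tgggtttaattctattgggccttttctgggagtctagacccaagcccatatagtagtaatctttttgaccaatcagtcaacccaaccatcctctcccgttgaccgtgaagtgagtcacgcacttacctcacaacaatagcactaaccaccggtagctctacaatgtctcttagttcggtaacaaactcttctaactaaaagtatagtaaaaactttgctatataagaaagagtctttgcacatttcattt

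The G-box began 233 bases before the start of CHS, 249 before that of F3H, 14 before that of DFR and 118 before that of MYB12. Its core ACGT, which overlaps the G-box, was found in 44.08% of all promoters and in the same 4 genes. The related CACGTA was found in 6.774% of promoters and in 0 of the 10. A pair of elements bound by MYB proteins was searched on both strands too. ACCTACC occurred in 1.162% of promoters and in 0 of the 10 genes, and ACCAACC occurred in 2.689% and, on the opposite strand, in UGT75C1. These matches describe letters in a short window and not bound sites.

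The libraries held between 9990273 and 15849129 reads on listed genes at 4 h and between 12753467 and 19044837 at 10 d, as recovered from the RPKM values (reads scaled to gene length and to library size). The locus printed in the titles of the DIG1 samples, AT3G45810, was not listed in the tables. AT3G48510 stood at 1577 ± 197 RPKM (SD, n = 2) in the DIG1 libraries at 4 h and at 0.992 ± 0.624 in GFP. The DIG2 locus AT5G50360 stood at 3782 ± 1551 RPKM (SD, n = 2) in the DIG2 libraries and at 0.822 ± 0.0763 in GFP. PORA, which encodes the protochlorophyllide reductase of dark-grown seedlings, stood at 879 and 981 RPKM in GFP at 4 h, at 81.5 and 64.4 in DIG1 and at 189 and 201 in DIG2. Replicate 1 of DIG1 at 4 h stood apart. The 3 listed seed maturation markers of 12 summed to 340 RPKM there, to 7.84 in DIG1 replicate 2, and to between 5.94 and 16.8 in the other 4 libraries of that table. These 3 were RAB18, LEA4-5 and ABI3, and the seed storage and oleosin genes of the list were not listed at 4 h. RAB18 and LEA4-5 made up most of the sum, at 123 ± 169 and 48.9 ± 63.4 RPKM (SD, n = 2) in DIG1. RAB18 also stood at 46.0 ± 16.4 RPKM (SD, n = 2) in GFP seedlings at 10 d. The sum therefore speaks neither for seed genes at large nor for seed tissue. The member results and list counts of DIG1 at 4 h are also given without DIG1 replicate 1, and its part in them was not tested.

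At 4 h in dark-grown seedlings the early genes other than CHS were low, and the early genes did not move as a block. F3'H rose in both lines, F3H was higher in DIG1 short of the threshold, and CHS, CHI and FLS1 fell in DIG2. In GFP the order of mean levels was CHS, at 20.0 ± 2.18 RPKM (SD, n = 2), then CHI at 6.69 ± 1.23, FLS1 at 2.69 ± 0.173, F3H at 1.88 ± 0.464 and F3'H at 1.57 ± 0.232. The libraries of the last pair overlapped, and those of the others did not. In percentiles of the 17371 listed genes, CHS stood at 63.3, CHI at 29.6 and F3'H at 4.04. Each member apart from CHS was counted with at most 112 reads in any library of that table.

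**Figure D1:**
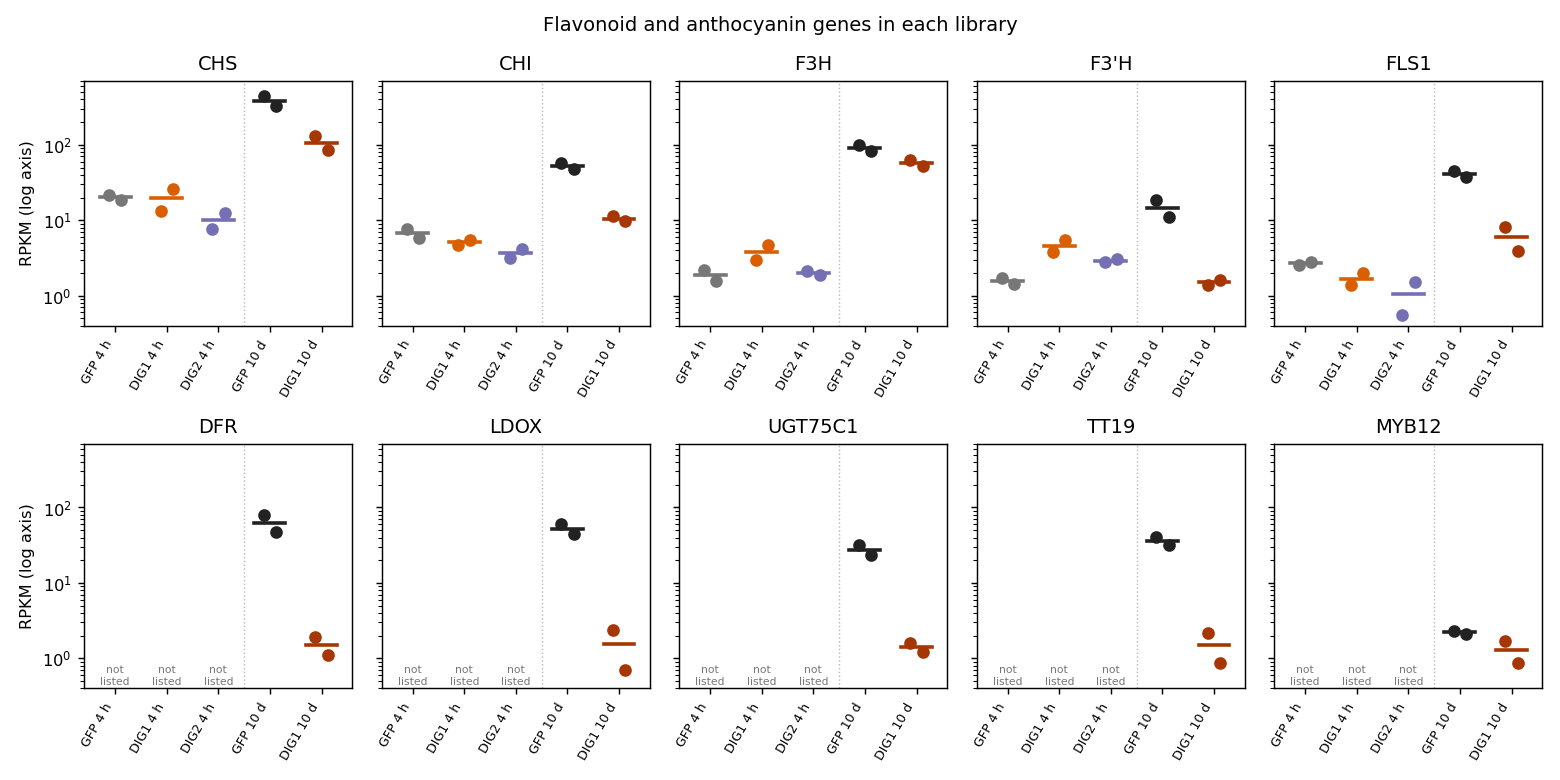
RPKM of each of the 10 genes on a log axis, with 1 point for each library and a short line at the mean of its group (n = 2); the dotted line separates the tables, which were normalized separately. The 4 late genes lie between 0.709 and 2.40 RPKM in DIG1 at 10 d and between 23.1 and 78.7 in GFP, and they and MYB12 were not listed at 4 h.

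F3'H measured 1.74 and 1.41 RPKM in GFP, 3.80 and 5.45 in DIG1, and 2.77 and 3.03 in DIG2. All 4 libraries of the DIG lines were above both GFP libraries. F3'H rose by 1.29 ± 0.20 (log2, SE) in DIG1, a 2.45-fold change on the log2(RPKM + 0.5) scale (limma, adjusted p = 0.00431), and by 0.72 ± 0.20 in DIG2 (adjusted p = 0.0401). The DIG2 call was lost when any 1 of the 4 libraries compared was left out, with adjusted p between 0.0904 and 0.208, whereas the DIG1 call held in each such fit. Without DIG1 replicate 1 the DIG1 difference was 1.52 (limma, adjusted p = 0.0102).

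F3H measured 2.21 and 1.56 RPKM in GFP, 2.93 and 4.74 in DIG1, and 2.14 and 1.89 in DIG2. Both DIG1 libraries were above all 4 others, and those of DIG2 lay within the GFP range. The DIG1 difference was 0.84 ± 0.24 (log2, SE) and did not pass the threshold of 0.05 (limma, adjusted p = 0.0560). Without DIG1 replicate 1 it was 1.15 and passed (limma, adjusted p = 0.0382). The authors' deposited table gives F3H a log2 fold change of 1.02 with an FDR of 0.0121 in DIG1. In DIG2 the difference was 0.09 ± 0.24 (limma, adjusted p = 0.843).

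CHS, the entry enzyme, measured 21.6 and 18.5 RPKM in GFP, 13.4 and 25.7 in DIG1, and 7.69 and 12.6 in DIG2. The DIG1 libraries lay on either side of GFP, and the DIG2 libraries lay below it. CHS fell by 0.99 ± 0.28 (log2, SE) in DIG2 (limma, adjusted p = 0.0406). In DIG1 the difference was -0.10 ± 0.28 (limma, adjusted p = 0.878) and changed sign, to 0.36, without DIG1 replicate 1.

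CHI measured 7.56 and 5.83 RPKM in GFP, 4.75 and 5.47 in DIG1, and 3.19 and 4.18 in DIG2. FLS1, on the flavonol branch, measured 2.57 and 2.82 RPKM in GFP, 1.38 and 1.97 in DIG1, and 0.561 and 1.54 in DIG2. For both genes GFP was highest and did not overlap with either line. In DIG2, CHI fell by 0.78 ± 0.18 (log2, SE; limma, adjusted p = 0.0199) and FLS1 by 1.12 ± 0.29 (adjusted p = 0.0305). In DIG1 the differences were -0.35 ± 0.18 for CHI and -0.57 ± 0.29 for FLS1, which did not pass (limma, adjusted p = 0.304 and 0.297), and without DIG1 replicate 1 they were -0.26 and -0.37 (adjusted p = 0.587 and 0.632). FLS1 in DIG2 rested on 13 and 29 reads. The DIG2 calls for CHS and FLS1 were lost without GFP replicate 1, GFP replicate 2 or DIG2 replicate 1, and that for CHI without GFP replicate 1 or DIG2 replicate 1. Those for CHS and FLS1 were also lost when limma was fitted without a variance trend (adjusted p = 0.0964 and 0.0528).

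Thus 1 of 5 early genes was called higher in DIG1 and 0 lower, where 3.01% and 5.54% of all 17371 genes were called higher and lower. Without DIG1 replicate 1 the DIG1 counts were 2 higher and 0 lower. In DIG2 the counts were 1 higher and 3 lower, beside 7.37% and 7.48% of all genes. The median difference over the 5 genes was -0.10 in DIG1 and -0.78 in DIG2 on the log2 scale, and that over all genes was -0.00296 in DIG1 and -0.00837 in DIG2. In DIG1, 0 of 5 were also lower at an unadjusted limma p under 0.05 and by limma-voom. Counted by libraries that did not overlap with GFP, F3H and F3'H lay above it in DIG1 and CHI and FLS1 below it, where 25.2% of all genes lay above and 26.5% below. In DIG2, F3'H lay above and CHS, CHI and FLS1 below, where 29.3% and 30.9% of all genes did. The lines share the GFP libraries.

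The lines were also compared with each other. All 5 early genes had higher means in DIG1 than in DIG2, and the libraries of 4 did not overlap, beside 22.2% of all genes with both DIG1 libraries above both of DIG2. The test called 0 of 5, beside 0.622% of all genes called higher and 1.74% lower (limma, adjusted p between 0.136 and 0.373). CHS, CHI, F3H and F3'H had an unadjusted p under 0.05, as did 17.4% of all genes. The differences and their unadjusted 95% intervals were 0.88 for CHS (0.26 to 1.50), 0.43 for CHI (0.02 to 0.84), 0.75 for F3H (0.23 to 1.28), 0.57 for F3'H (0.12 to 1.02) and 0.55 for FLS1 (-0.10 to 1.20) on the log2 scale. With 1 library left out in turn they ranged from 0.42 to 1.34 for CHS, from 0.26 to 0.60 for CHI, from 0.45 to 1.06 for F3H, from 0.34 to 0.81 for F3'H and from 0.08 to 1.02 for FLS1, and 0 of 5 passed in any of these fits. CHS, F3H and F3'H were smallest without DIG1 replicate 2 and largest without DIG1 replicate 1, and CHI and FLS1 were smallest without DIG2 replicate 1 and largest without DIG2 replicate 2. On the recovered reads limma-voom called CHS higher in DIG1 than in DIG2 (adjusted p = 0.0220).

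At 10 d in light-grown seedlings the pathway stood high in GFP and far lower in DIG1. All 5 early genes and all 4 late genes fell. The early genes fell by between 0.64 and 2.88 on the log2 scale and the late genes by between 3.88 and 4.97, so the ranges did not overlap. That gap is one of the chosen genes and not of the whole pathway. DFR, LDOX and TT19 were also listed only because of their GFP levels, so the gap lends no support of its own. Among other enzymes, SAT, which acts on anthocyanins, fell by 3.39. UGT78D1, which acts on flavonols, and OMT1, which acts on flavonols and other phenolics, fell by 3.87 and 3.93. MYB12 was lower in both DIG1 libraries without passing the test. The count of 9 lower of 10 stands beside 31.2% of all 17433 genes called lower and 31.9% called higher. In bulk samples, fewer cells of a type and less RNA per cell cannot be told apart.

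**Figure D2:**
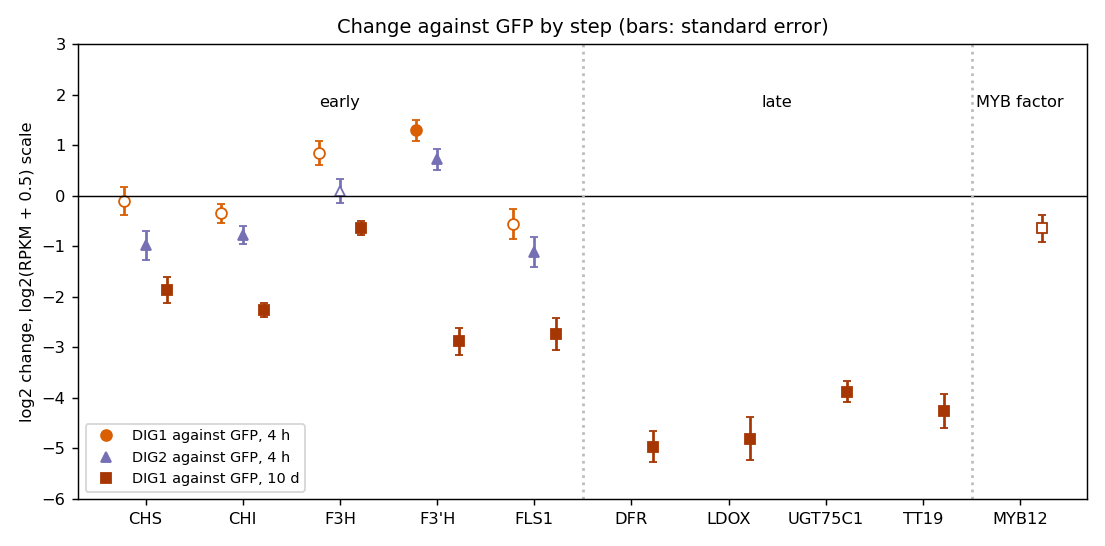
Difference from GFP of each gene on the log2(RPKM + 0.5) scale, with standard errors, at 4 h in DIG1 and DIG2 and at 10 d in DIG1; filled symbols passed an adjusted p of 0.05 and open symbols did not. At 10 d the early genes lie between -0.64 and -2.88 and the late genes between -3.88 and -4.97, and F3'H lies above 0 at 4 h and below 0 at 10 d.

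In light-grown GFP seedlings CHS was the most abundant member, at 445 and 328 RPKM, in percentile 98.7 of listed genes. It measured 130 and 84.3 in DIG1, a fall of 1.86 ± 0.25 (log2, SE; limma, adjusted p = 0.00247), and remained the highest of the 10 there. CHI measured 56.7 and 48.2 RPKM in GFP and 11.4 and 9.70 in DIG1. It fell by 2.26 ± 0.13 (limma, adjusted p = 0.000336).

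F3H fell least among the early genes. It measured 99.2 and 83.0 RPKM in GFP and 63.6 and 52.8 in DIG1, a fall of 0.64 ± 0.14 (log2, SE; limma, adjusted p = 0.0120). The call was lost without GFP replicate 1 (limma, adjusted p = 0.0646). Of all genes, 25.8% were lowered further than F3H, compared with 3.59% for F3'H. F3'H measured 18.3 and 11.0 RPKM in GFP and 1.39 and 1.61 in DIG1, a fall of 2.88 ± 0.26 (limma, adjusted p = 0.000791). FLS1 measured 44.8 and 37.5 RPKM in GFP and 8.20 and 3.95 in DIG1, a fall of 2.74 ± 0.32 (limma, adjusted p = 0.00166). For each of these genes every DIG1 library was below every GFP library, as was so for 40.2% of all genes.

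DFR, the first enzyme of the anthocyanin branch, had the largest fall of the 10. It measured 78.7 and 47.5 RPKM in GFP, from 1269 and 1164 reads, and 1.92 and 1.11 in DIG1, from 39 and 27 reads. It fell by 4.97 ± 0.31 (log2, SE), or 31.3-fold on that scale (limma, adjusted p = 0.000382). The ratio of mean RPKM, without a pseudocount, was 41.7-fold. LDOX, which acts after DFR, measured 61.3 and 43.9 RPKM in GFP and 2.40 and 0.709 in DIG1, a fall of 4.81 ± 0.43 (limma, adjusted p = 0.000775).

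UGT75C1 and TT19 act on the finished pigment, by adding sugar and in transport. UGT75C1 measured 32.1 and 23.1 RPKM in GFP and 1.58 and 1.22 in DIG1, and fell by 3.88 ± 0.21 (log2, SE; limma, adjusted p = 0.000285). TT19 measured 40.8 and 31.9 RPKM in GFP and 2.15 and 0.860 in DIG1, and fell by 4.27 ± 0.34 (limma, adjusted p = 0.000599). Ranked from the most lowered of the 17433 genes, DFR was at place 60, LDOX at 76, TT19 at 139 and UGT75C1 at 211. No early gene ranked above F3'H at place 627. A low-value filter bears on these counts: on the CPM scale, which divides reads by library size alone, DFR and LDOX reached 2 in 1 of 2 DIG1 libraries and TT19 reached it in 0 of 2, so they were listed because of their GFP levels, as was MYB12, with 1 of 2. The count of members lowered is therefore a description and lends no support of its own.

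MYB12 was the lowest of the 10 in GFP, with 2.32 and 2.14 RPKM, and measured 1.70 and 0.882 in DIG1. The difference was -0.64 ± 0.27 (log2, SE) with an unadjusted 95% interval from -1.33 to 0.04 (limma, adjusted p = 0.0873). It passed without DIG1 replicate 1 (limma, adjusted p = 0.0212).

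In GFP at 10 d the mean levels ran from CHS through F3H (91.1 RPKM), DFR (63.1), LDOX (52.6), CHI (52.5), FLS1 (41.2), TT19 (36.3), UGT75C1 (27.6) and F3'H (14.7) to MYB12 (2.23). CHS, F3'H and MYB12 overlapped with no neighbour in that order, nor did F3H with DFR or CHI with FLS1. The libraries of DFR, LDOX and CHI overlapped from one to the next, as did those of FLS1, TT19 and UGT75C1. In DIG1, CHS and F3H stayed above all others, at 107 ± 31.9 and 58.2 ± 7.63 RPKM (SD, n = 2). The 4 late genes, F3'H and MYB12 lay together there, with means from 1.29 to 1.55 RPKM and overlapping libraries.

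The early and late steps could be set side by side within each light-grown library. The mean log2(RPKM + 0.5) of the 5 early genes exceeded that of the 4 late genes by 0.54 and 0.66 in GFP and by 2.81 and 3.20 in DIG1. The median change was -2.26 for the early genes and -4.54 for the late genes, beside 0.05 for all genes. At the fork, FLS1 over DFR was 0.569 and 0.789 in GFP and 4.27 and 3.57 in DIG1. DFR exceeded FLS1 in both GFP libraries, and FLS1 exceeded DFR in both DIG1 libraries. These differences between groups of steps are described without a test and hold for the chosen genes only. DFR, LDOX and TT19 were listed because of their GFP levels, whereas every early gene reached 2 CPM in both DIG1 libraries. The late genes and F3'H had means from 1.40 to 1.55 RPKM in DIG1, so how far each fell depends largely on its GFP level.

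Among the early genes, the ratio of F3H to CHS was higher in the DIG lines than in GFP within each table. It was 0.102 and 0.0841 in GFP at 4 h, 0.219 and 0.184 in DIG1, and 0.278 and 0.151 in DIG2. At 10 d it was 0.223 and 0.253 in GFP and 0.491 and 0.626 in DIG1. The groups did not overlap with GFP in either table, and how often other pairs of genes do so was not computed. F3'H over F3H moved in opposite directions. It was 0.786 and 0.907 in GFP at 4 h, 1.30 and 1.15 in DIG1, and 1.30 and 1.60 in DIG2, whereas at 10 d it was 0.185 and 0.132 in GFP and 0.0218 and 0.0305 in DIG1. FLS1 over F3H was lower than in GFP in every DIG library of both tables, for example 0.452 and 0.452 in GFP at 10 d and 0.129 and 0.0749 in DIG1. DFR over F3H at 10 d was 0.794 and 0.572 in GFP and 0.0302 and 0.0210 in DIG1. CHI over CHS at 10 d was 0.128 and 0.147 in GFP and lower in DIG1, at 0.0878 and 0.115. At 4 h CHI over CHS overlapped with GFP, as did LDOX over DFR at 10 d. CHI over CHS at 4 h was 0.350 and 0.315 in GFP, 0.355 and 0.213 in DIG1, and 0.414 and 0.333 in DIG2. LDOX over DFR at 10 d was 0.778 and 0.925 in GFP and 1.25 and 0.640 in DIG1.

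**Figure D3:**
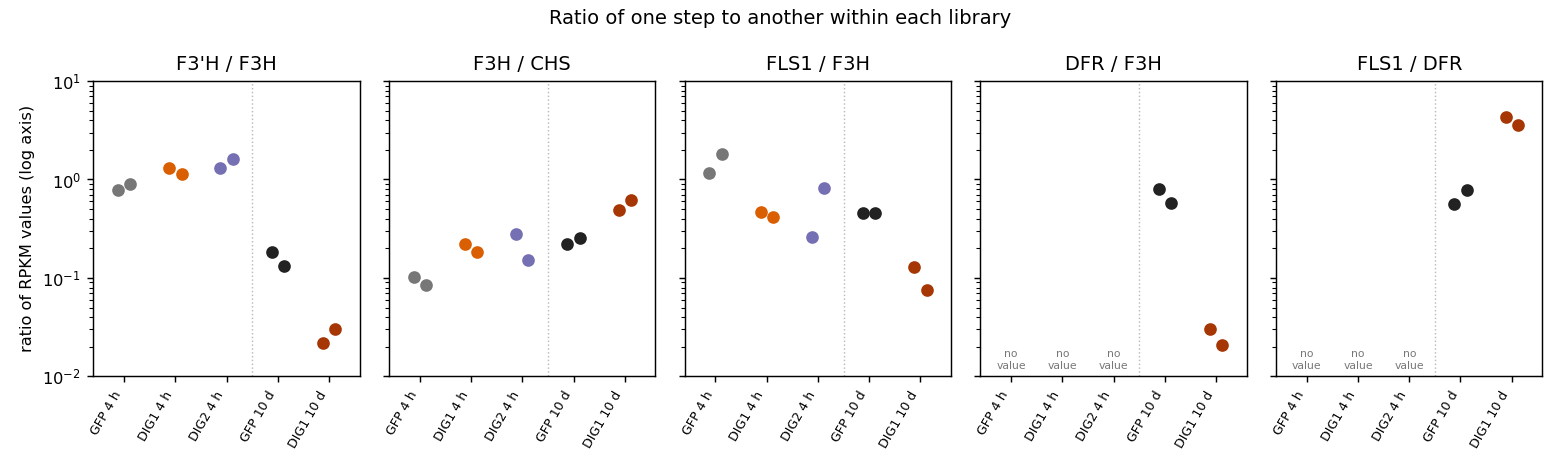
Ratio of the RPKM values of a pair of steps within each library, on a log axis with 1 point per library; the dotted line separates the tables. F3'H over F3H lies higher in the DIG lines than in GFP at 4 h and lower at 10 d, and FLS1 over DFR lies between 0.569 and 0.789 in GFP and between 3.57 and 4.27 in DIG1 at 10 d.

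Across all 5 groups the early genes had their highest levels in light-grown GFP. CHS stood at 20.0 RPKM in dark-grown and 386 in light-grown GFP, and F3H at 1.88 and 91.1; the tables were normalized separately, and age, light, dose and duration also differ, so no test was made. In DIG1, F3'H stood at 4.62 ± 1.17 RPKM (SD, n = 2) at 4 h and 1.50 ± 0.158 at 10 d, and it was the only early gene whose mean in DIG1 was lower in the light-grown table.

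Other genes of the pathway were read from lists of enzymes and regulators, and their counts stand beside the shares of all genes called higher and lower, which were 3.01% and 5.54% in DIG1 at 4 h, 7.37% and 7.48% in DIG2 at 4 h, and 31.9% and 31.2% in DIG1 at 10 d. Of the 8 general phenylpropanoid genes, which supply the pathway with its precursor, 5 were lower in DIG1 at 4 h, 3 in DIG2 at 4 h and 8 in DIG1 at 10 d, and 0 were higher in any of these, where 5.54%, 7.48% and 31.2% of all genes were lower. Without DIG1 replicate 1 the first count was 2. Of the 8 lower at 10 d, PAL4 and 4CL3 reached 2 CPM in fewer than 2 DIG1 libraries and were listed because of their GFP levels. PAL1, the first enzyme, stood at 128 ± 3.54 RPKM (SD, n = 2) in GFP at 10 d and 22.3 ± 1.28 in DIG1, a fall of 2.50 ± 0.09 (log2, SE; limma, adjusted p = 0.000206). It also fell at 4 h, by 1.18 in DIG1 and by 0.91 in DIG2. 4CL3, the ligase isoform tied to flavonoids, fell by 3.31 at 10 d, from 16.3 to 1.25 RPKM. PAL2 and 4CL1 fell by 1.44 and 1.84 at 10 d. The others lower at 4 h were PAL2, PAL4, 4CL1 and 4CL2 in DIG1, by 0.73, 0.72, 0.70 and 0.95, and PAL4 and 4CL1 in DIG2, by 0.67 and 0.59.

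The list of other flavonoid enzymes holds genes that decorate flavonols and anthocyanins, and also CHIL, RHM1 and the flavonol synthase relatives FLS3 and FLS5. Of its 17 genes, 11 were listed at 4 h and 16 at 10 d. In DIG1 at 4 h 2 were lower and 0 higher, in DIG2 3 were lower and 1 higher, and at 10 d 14 were lower and 1 higher. All genes were lower in 5.54%, 7.48% and 31.2% of cases in the same order, and higher in 3.01%, 7.37% and 31.9%. Of the 14, 5 were listed because of their GFP levels (FLS3, UGT79B1, 5MAT, 3AT1 and 3AT2), so that count lends no support of its own. OMT1, a methyltransferase acting on flavonols and other phenolics, measured 121 and 122 RPKM in GFP at 4 h, 35.8 and 30.3 in DIG1, and 21.1 and 32.5 in DIG2. It fell by 1.87 ± 0.17 (log2, SE) in DIG1 and by 2.20 ± 0.17 in DIG2 (limma, adjusted p = 0.000198 and 8.6e-05), further than any member at 4 h. At 10 d it fell by 3.93 ± 0.31, from 246 and 289 RPKM to 12.2 and 23.8. UGT78D1, a flavonol rhamnosyltransferase, fell in all 3 comparisons with GFP, by 1.00, 1.70 and 3.87. The others called in DIG2 at 4 h were FLS5, of the flavonol synthase family, which rose by 0.42, and UGT89C1, a flavonol rhamnosyltransferase, which fell by 0.82. SAT, which adds a sinapoyl group to anthocyanins and was not listed at 4 h, fell by 3.39 at 10 d. UGT73C6, a flavonol glucosyltransferase, went the other way at 10 d, from 1.71 and 1.88 RPKM in GFP to 29.8 and 21.6 in DIG1, a rise of 3.49 ± 0.19 (limma, adjusted p = 0.000286). It has close tandem copies, so its count is uncertain. Of 7 genes of the seed-coat proanthocyanidin branch, 2 were listed at 4 h and 1 at 10 d, and 0 passed a test against GFP by limma or limma-voom, also without adjustment in limma. AHA10, a proton pump, was listed in both tables, with limma adjusted p between 0.242 and 0.798, and TT10, a laccase, was listed at 4 h, with 0.832 in DIG2 and 0.975 in DIG1.

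Of 11 activators of the pathway, 4 were listed at 4 h and 6 at 10 d. In DIG1 at 4 h 0 of 4 passed (limma, and limma-voom; EGL3 alone had an unadjusted limma p under 0.05, 0.0380), and in DIG2 MYB111 fell by 0.93 (limma, adjusted p = 0.0244). At 10 d 5 of 6 fell and 1 rose, where 31.2% and 31.9% of all genes did. Of the 5, PAP1, TT8, MYB111 and TTG2 did not reach 2 CPM in either DIG1 library and were listed because of their GFP levels, so the count is a description. PAP1, the MYB protein of the anthocyanin genes, measured 11.0 and 17.8 RPKM in GFP and 0.732 and 0.305 in DIG1, a fall of 3.86 ± 0.32 (log2, SE; limma, adjusted p = 0.000647). TT8, its bHLH partner, measured 3.03 and 2.09 RPKM in GFP, from 44 and 46 reads, and was listed at 0 in both DIG1 libraries. TTG2, a WRKY protein, fell by 2.52, MYB111 by 1.79 and EGL3, another bHLH protein, by 0.90. TTG1 rose by 0.57 (limma, adjusted p = 0.00499).

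Repressors and light regulators were called in both directions. Of 8 repressors, 7 were listed at 4 h and 8 at 10 d, and 1 was higher and 3 lower in DIG1 at 4 h, 3 and 3 in DIG2, and 3 and 3 in DIG1 at 10 d. The balance depended on the method. By limma-voom 3 were higher and 1 lower in DIG1 at 4 h, 3 and 3 in DIG2, and 3 and 1 in DIG1 at 10 d. In limma at 10 d, 3 of 8 in each direction lay near the 31.9% higher and 31.2% lower of all genes. At 4 h all genes were higher and lower in 3.01% and 5.54% of cases in DIG1 and in 7.37% and 7.48% in DIG2. MYBL2, which represses the MYB-bHLH complexes, rose in all 3 comparisons, by 0.91, 1.01 and 1.44. It measured 29.1 and 31.7 RPKM in GFP at 10 d and 78.0 and 88.5 in DIG1. MYB4, a repressor of phenylpropanoid genes, fell in all 3, by 0.62, 0.71 and 2.76. KFB-CHS, an F-box protein that targets chalcone synthase for degradation, rose by 0.45 in DIG2 at 4 h and by 0.92 in DIG1 at 10 d. LBD38 fell by 0.69 in DIG1 and by 0.39 in DIG2 at 4 h. Its relative LBD37 fell by 0.41, 0.45 and 0.44 in the 3 comparisons, and LBD39 rose by 0.55 in DIG2 at 4 h and by 1.11 at 10 d. SPL9, which is known to interfere with the MYB-bHLH complexes, fell by 0.64 at 10 d. Of 9 light regulators, 2 were higher and 0 lower in DIG1 at 4 h, 3 and 1 in DIG2, and 5 and 1 in DIG1 at 10 d, beside the shares of all genes just given. HY5, an activator, rose by 0.79, 0.84 and 1.09 in the 3 comparisons. RUP1, a repressor of UV-B signalling, rose by 0.67, 0.85 and 2.83, to 28.4 and 27.1 RPKM in DIG1 at 10 d from 3.62 and 3.35 in GFP. BBX22, a B-box activator, rose by 0.47 in DIG2 at 4 h and by 1.20 in DIG1 at 10 d, and COP1, the ubiquitin ligase that degrades HY5, rose by 0.56 at 10 d. UVR8, the UV-B receptor, rose by 0.34 at 10 d, and RUP2, the relative of RUP1, fell by 0.86 in DIG2 at 4 h and by 0.73 at 10 d. Between DIG1 and DIG2, 0 of the 41 listed genes of these 6 lists passed in limma, 6 were higher and 3 lower at an unadjusted p under 0.05, and limma-voom called 2 higher.

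Many of these calls at 4 h did not pass in every fit with 1 library fewer, although none of the called list genes named here changed direction. Those of OMT1 and MYBL2 in both lines, of PAL1 and LBD38 in DIG1, and of UGT78D1, HY5 and RUP1 in DIG2 held in every alternative fit. The DIG1 calls of PAL2, PAL4, 4CL1, 4CL2, UGT78D1, MYB4, LBD37, HY5 and RUP1 were each lost in 1 or more fits without 1 library, with limma adjusted p of up to 0.187. Their differences moved little for some, such as PAL4 at -0.82 to -0.61 and 4CL1 at -0.79 to -0.61, and more for others, such as HY5 at 0.56 to 1.02. The same was so of the DIG2 calls of PAL1, PAL4, 4CL1, FLS5, UGT89C1, MYB111, MYB4, KFB-CHS, LBD37, LBD38, LBD39, RUP2 and BBX22, with adjusted p of up to 0.263, and with differences of -1.23 to -0.59 for PAL1 and 0.44 to 0.50 for BBX22. At 10 d the calls of EGL3, LBD37, SPL9 and UVR8 were lost in such fits (limma, adjusted p of up to 0.206). Without DIG1 replicate 1, the DIG1 counts at 4 h were 2 lower of the other enzymes, 0 called of the activators, 1 higher and 1 lower of the repressors and 1 higher of the light regulators, and 0 of any list passed between DIG1 and DIG2.

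**Figure D4:**
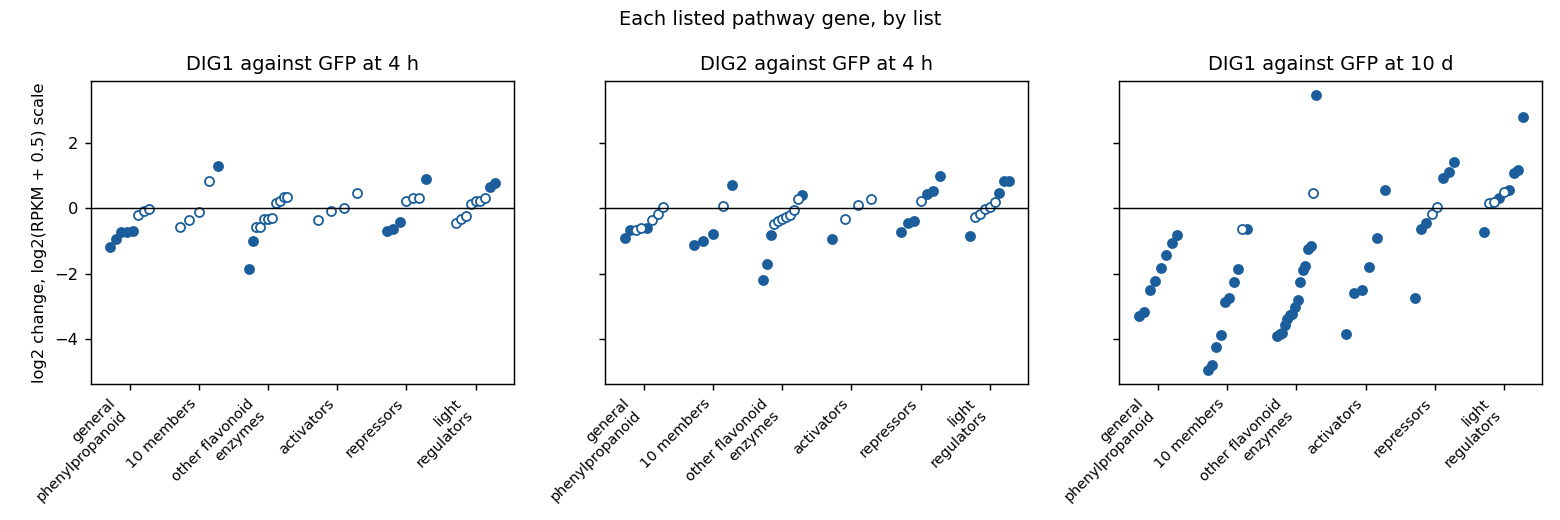
Difference from GFP of every listed gene of the pathway lists on the log2(RPKM + 0.5) scale in the 3 comparisons with GFP; each point is 1 gene, ordered by value within its list, and filled points passed an adjusted p of 0.05. At 10 d all 8 general phenylpropanoid genes and 14 of 16 other flavonoid enzymes were called lower, UGT73C6 stands alone at 3.49, and RUP1 tops the light regulators at 2.83; 31.2% of all genes were called lower and 31.9% higher there.

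Markers of tissues also differed between GFP and DIG1 at 10 d, though not all of them and not all in the same direction. The 5 green tissue markers summed to 34031 and 31036 RPKM in GFP and to 11455 and 14442 in DIG1, and 4 of 5 were lower, where 31.2% of all genes were. The 7 listed root markers of 8 summed to 92.1 and 112 RPKM in GFP and to 37.9 and 35.0 in DIG1, and 5 of 7 were lower. SCR, a root marker not called, stood at 26.4 RPKM in GFP and 26.2 in DIG1. The 3 listed seed maturation markers of 12 summed to 43.5 and 71.6 RPKM in GFP and to 12.4 and 7.50 in DIG1, and 2 of 3 were lower (RAB18 and OLEO4). The 4 listed guard cell markers of 5 summed to 34.4 and 36.6 RPKM in GFP and to 28.6 and 28.3 in DIG1, with KAT1 and SLAC1 lower and FAMA higher. Some markers had low means in DIG1 at 10 d: 0.0323 RPKM for NRT2.1, 0.666 for PHT1;1, 0.634 for SLAC1 and 0.115 for OLEO4. Such genes may have been listed because of their GFP levels, so these marker counts are descriptions and lend no support of their own. At 4 h the green tissue sum was 8080 and 9034 in GFP, 7374 and 4252 in DIG1, and 6294 and 5888 in DIG2, and 1 and 2 of 5 were called lower, where 5.54% and 7.48% of all genes were. The guard cell sum was 30.7 and 29.2 in GFP, 19.1 and 17.1 in DIG1, and 18.1 and 18.7 in DIG2, with KAT1 lower in both lines and HT1 lower in DIG2. The sum of the 6 root markers listed at 4 h was 302 and 306 in GFP, 279 and 257 in DIG1, and 300.0 and 372 in DIG2, with NRT2.1 higher and EXP7 lower in DIG1. At 4 h 0 of 3 seed maturation markers passed in either line (limma, adjusted p between 0.122 and 0.852), and LEA4-5 in DIG1 alone had an unadjusted p under 0.05. The part of tissue make-up in the pathway results was not tested.

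Likeness of pattern was measured as the root mean square difference of centred log2(RPKM + 0.5) values. Over all 10 libraries, with 12068 genes compared, the 5 genes nearest to the mean early pattern were CMT2, CYCA2;3, AT5G59970, AT3G20790 and TRM15, at 0.170 to 0.200. CHS and CHI themselves lay at 0.229 and 0.214 from that mean, FLS1 at 0.397, F3'H at 0.501 and F3H at 0.517. Over the 4 light-grown libraries, the 5 genes nearest to the mean late pattern among 13213 were AMT1;3, TLL1, IMS2, AT4G24780 and AT1G03820, at 0.0418 to 0.121. AMT1;3 encodes an ammonium transporter. TLL1, named for its likeness to lipases, measured 152 and 88.3 RPKM in GFP and 6.16 and 3.57 in DIG1.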

How the data were processed

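RNA of 10 seedling libraries was compared within 2 tables, of 4 h and 10 d. The library kit was strand-specific and the sequencer an Illumina HiSeq, per the labels' protocols. Per the file headers, the authors deposited an RPKM value for each gene and library, with a log2 fold change and an FDR (an adjusted p-value) for each line against GFP. The first GFP column of each deposited table holds the locus and a value in 1 cell, which was split. HTSeq 0.5.4, edgeR 3.6.2 and the build TAIR10 are named in the submitters' processing notes. How reads were aligned and RPKM scaled is not given in the sources used here. As the tables were normalized separately, each was fitted alone.

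RPKM was put on the scale log2(RPKM + 0.5), which understates the change of low genes, and the test was that of limma 3.58.1, run in R 4.3.3 (empirical Bayes with a variance trend, two-sided, Benjamini-Hochberg adjustment over the whole table, threshold 0.05). The 4 h comparisons were fitted on 6 libraries and that at 10 d on 4, without a block for replicate number. The fit was tested on simulated data. Whole reads were recovered from the RPKM steps for 100.0% of genes in both tables, with a tolerance of 0.001 read, and used for depth, for CPM and for a limma-voom alternative. All but 17 genes at 4 h and 79 at 10 d reached 2 CPM in 2 libraries, so lower genes were largely left out before deposit. Replicates correlated across genes at 0.985 to 0.992 and differed by more than counting noise. Intervals are those of the fit.

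The members, lists and tests were chosen with earlier results of these data known. Of each pathway list, up to 4 genes with the smallest adjusted p in any comparison are named, and any other needed by a count of 5 or fewer; EGL3, TTG1, PAL4, 4CL2, FLS5, UGT89C1, LBD37, LBD39, SPL9, RUP2 and UVR8 were named in this way, after their values were seen, as were the marker genes. Likeness was searched among genes with a mean of at least 5 RPKM in both tables over 10 libraries; late genes were not listed at 4 h, so theirs used the 10 d table alone. Promoters came from the RefSeq genome and annotation TAIR10.1, matched on locus; the files hold no coordinates. Alternatives were the pseudocount, a filter on low values, median scaling, no variance trend, voom, fits on 2 groups, a replicate block and leaving out each library.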

Additional observations from a re-analysis of the deposited data

Results flagged for a closer look

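F3H was higher in DIG1 than in GFP at 4 h, in both libraries, and lower at 10 d, in both libraries. Its log2 change at 4 h minus that at 10 d was 1.49. The F3H difference at 4 h did not pass (limma, adjusted p = 0.0560), and its call at 10 d was lost without GFP replicate 1. Of all genes, 25.2% lay above GFP in both DIG1 libraries at 4 h and 40.2% below at 10 d. F3'H showed a reversal that passed at both times (limma, adjusted p = 0.00431 and 0.000791), and the difference between its 2 changes was 4.17 on the log2 scale. The tables were normalized separately, and the experiments also differ in age, light, dose and duration, so neither difference was tested.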

How the results depend on the processing

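With 2 libraries in each group and at most 112 reads behind each early gene other than CHS at 4 h, small changes there were not detectable. At 10 d, all 9 called members kept their direction and side of the threshold in every alternative except F3H without GFP replicate 1. Without a variance trend, 329 genes were higher in DIG1 at 4 h and 762 in DIG2, 1 member was lower in DIG2 (CHI), and 38 genes were higher and 111 lower in DIG1 than in DIG2. With voom, 992 genes and 2 members (F3'H and F3H, adjusted p = 0.0249) were higher in DIG1 at 4 h, and 484 genes and 1 member (CHS) were higher in DIG1 than in DIG2. A fit on those 2 groups alone called 65 genes higher. The cause of these differences was not tested.

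Leaving out 1 library, genes higher in DIG1 at 4 h ranged from 141 to 254 and genes lower from 335 to 587, with 1 to 2 members higher. In DIG2, genes higher ranged from 406 to 926 and lower from 509 to 1086, with 0 members higher in each fit and 0 to 3 lower. Between DIG1 and DIG2, genes higher ranged from 20 to 87 and lower from 88 to 163. The CHS difference in DIG1 at 4 h ranged from -0.56 to 0.36 on the log2 scale, and the F3H difference in DIG2 from -0.11 to 0.29. Fewer libraries were fitted in each, and where a group kept 1 library it was assumed to vary like the other groups. Over all genes, deviations of libraries with the same replicate number correlated at -0.01 to 0.16. The members at 10 d did share a shift, with replicate 1 above replicate 2 in both groups, apart from F3'H in DIG1. Their early mean log2 was 6.20 and 5.82 in GFP and 4.13 and 3.74 in DIG1. The late mean was 5.66 and 5.16 in GFP and 1.32 and 0.55 in DIG1. The fit with a replicate block called 580 genes higher in DIG1 at 4 h and the same number of members in every comparison. At 10 d it gave smaller limma adjusted p, for example 0.000238 in place of 0.00247 for CHS. Of the fits with 1 library left out or another setting, 71 and 14 ended a call of another named pathway gene, 11 of these at 10 d and the others at 4 h. Median scaling moved the median of all genes by at most 0.02.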
